A study of Rattus norvegicus with 183 samples.

Results

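The genes described are 8 receptors of metabolic hormones and related peptides, Lepr, Ghsr, Insr, Glp1r, Oxtr, Mc3r, Mc4r and Npy1r, chosen by name from the 38354 genes measured. Polyadenylated RNA of the posterior part of the ventral tegmental area, where many midbrain dopamine neurons lie, was sequenced from outbred heterogeneous stock laboratory rats. The series describes 183 samples, of which 31 are labelled as removed and were not used here, and each of the rest is 1 library. The labels used here give no treatment, genotype, sex or age, so all libraries form 1 group. They differ in the form of the animal identifier, decimal or hexadecimal, and 17 libraries carry a remark of having been relabelled or recovered.

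The libraries were divided by Th, the gene of the rate-limiting enzyme of dopamine synthesis, at 10 CPM (counts scaled to the library total). The libraries with Th (53 decimal, 87 hexadecimal, 1 other form) had at least 577 CPM. The other 11 (10 decimal, 1 hexadecimal) had at most 3.47 CPM. The labels give these 11 the same tissue, but their 10 dopamine neuron markers summed to only 43.5 to 66.96 CPM, against 2106 to 9993 CPM in the libraries with Th. Their 6 cortical or hippocampal markers summed to 2315 to 2570 CPM, against 4.99 to 1140 CPM. Another 6 libraries with Th had more than 100 CPM of the cortical glutamate transporter gene Slc17a7. Library totals ranged from 15159892 to 57159153 estimated counts, with a median of 24305377.

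Each of the 8 genes encodes a cell surface receptor for a signal of energy state or feeding. Lepr binds leptin from fat, Insr binds insulin, Ghsr binds ghrelin from the stomach, and Glp1r binds glucagon-like peptide 1 from gut and hindbrain. Oxtr binds oxytocin, Mc3r and Mc4r bind melanocortins and are opposed by agouti-related peptide, and Npy1r binds neuropeptide Y. Lepr is a cytokine receptor that acts through Jak2 and Stat3, Insr is a tyrosine kinase that acts through Irs proteins and Akt, and the other 6 are coupled to G proteins. Receptors of leptin, insulin, ghrelin and glucagon-like peptide 1 are known to act on midbrain dopamine neurons or their inputs, and vessels and meninges also hold some of these receptors.

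All 8 receptors were detected in every library with Th, and 3 of them, Mc3r, Ghsr and Glp1r, were at or near 0 in the libraries below the threshold. Mc3r (chromosome 3, position 181434776 in the file) ranged from 3.32 to 35.1 CPM with Th (median 18.3) and had no count in any of the 11 libraries below. A count of 0 allows up to 0.0646 CPM in the deepest and 0.167 CPM in the shallowest library (3 counts, counting error only). The median with Th was therefore at least 109.5-fold higher, against the floor of 3 counts in the shallowest of these libraries. Ghsr (chromosome 2, position 112196158) ranged from 3.21 to 18.7 CPM with Th (median 9.71) and from 0.0722 to 0.403 CPM below (median 0.197). For neither Mc3r nor Ghsr did the library sets overlap. The share of all genes that separate the sets was not counted, so whether this is unusual among genes is not known.

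Oxtr, Lepr and Glp1r were also lower below the threshold, with ranges that overlapped. Oxtr (chromosome 4, position 147171723) ranged from 2.80 to 11.8 CPM with Th (median 6.79) and from 1.61 to 3.17 CPM below (median 1.82). Only 3 libraries with Th lay at or under the highest of the 11. Lepr (chromosome 5, position 121409735) ranged from 1.99 to 23.6 CPM with Th (median 8.18) and from 1.62 to 4.33 CPM below (median 2.56), and 15 libraries with Th fell within the lower range. Glp1r (chromosome 20, position 8973393) was scarce throughout, from 0.0787 to 3.92 CPM with Th (median 1.21), and 6 of the 11 libraries below had no count, the highest reaching 0.217 CPM. Its lowest library with Th held 2 counts, so the low end of its range rests on few counts.

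Npy1r and Mc4r went the other way, and Insr did not separate the sets. Npy1r (chromosome 16, position 27814070) ranged from 2.47 to 16.8 CPM with Th (median 5.87) and from 25.8 to 36.6 CPM below (median 31.0), so its median was 5.29 times as high in the 11 libraries, with no overlap. Mc4r (chromosome 18, position 62691685) ranged from 0.327 to 4.46 CPM with Th (median 1.26) and from 2.02 to 5.71 CPM below (median 3.47). Of the libraries with Th, 35 reached the lowest Mc4r value of the 11. Insr (chromosome 12, position 6129275) ranged from 19.1 to 56.2 CPM with Th (median 40.0) and from 35.0 to 48.6 CPM below (median 41.5). The separation of Npy1r likewise has no share over all genes beside it. The sets were formed from a measured gene, so these levels are a description and carry no test. In such tissue pieces, fewer cells of a type and less RNA per cell cannot be told apart.

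**Figure D1:**
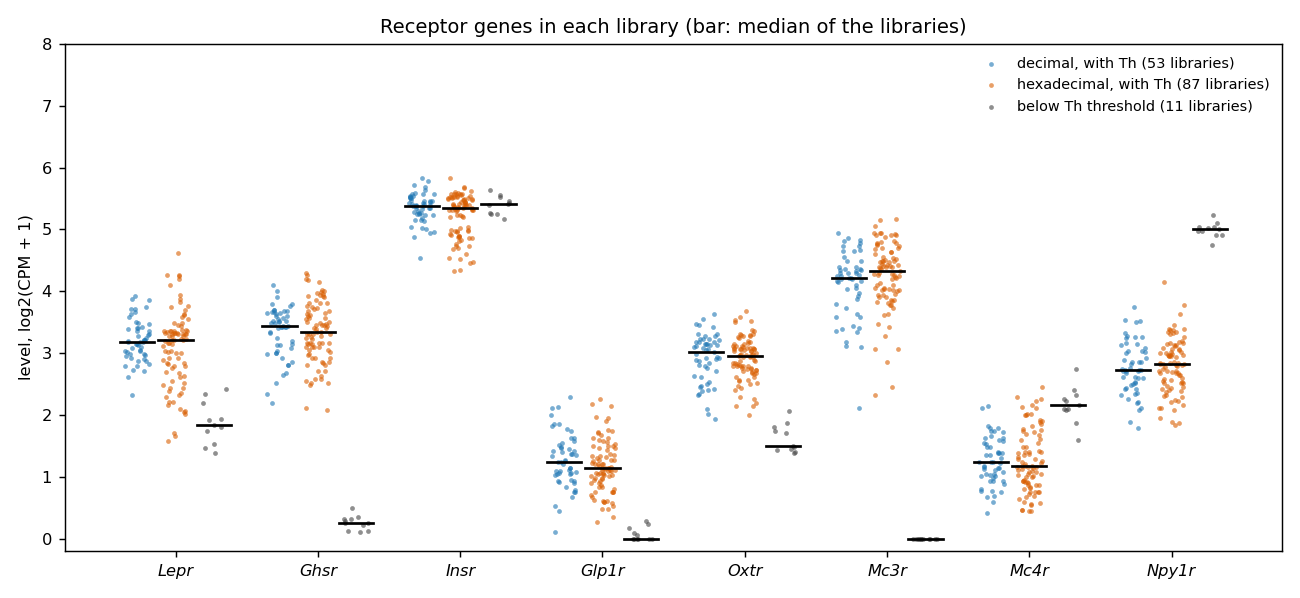
Each point is 1 library, at log2(CPM + 1) of a receptor gene on the vertical axis, with libraries with Th shown by identifier form and the 11 libraries below the Th threshold in grey; bars are medians, and the 1 library with another identifier form is not drawn. Mc3r sits at 0 in all 11 grey libraries, Ghsr sits under 0.403 CPM there, and Npy1r sits higher there than in every library with Th.

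The receptors differed in their spread over the libraries with Th, which holds differences between animals, dissections and preparations together. On the log2(CPM + 1) scale the SD was 0.56 for Mc3r, 0.53 for Lepr, 0.46 for Ghsr and Mc4r, 0.44 for Npy1r, 0.43 for Glp1r, 0.36 for Oxtr and 0.32 for Insr. Counting error would give 1.52% of this variance for Mc3r and 10.9% for Glp1r, the lowest and highest share of the 8. The SD depends on the level, so each was also set against the trend over 15546 genes. After that, Mc3r stood at percentile 93.7 of all genes, Lepr at 91.4 and Ghsr at 87.9, while Oxtr stood lowest at 70.5. The highest and lowest libraries were not the same for all genes: replicate 18, for example, had the lowest Mc3r and Oxtr and the highest Glp1r, and was among the 5 lowest on the dopamine neuron markers.

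To see which cells each receptor follows, every library with Th received a score for each of 16 marker lists, the mean of the standardised levels of the markers, itself scaled to an SD of 1. A slope is the change in log2(CPM + 1) of a gene per SD of a score. It was fitted with limma with the identifier form as a covariate in 140 libraries (the 1 library with another form was left out). A relation is called where the p adjusted by the Benjamini-Hochberg method over all 15547 genes of the fit is below 0.05. Over the 8 receptors and 16 scores 57 relations were called, 36 rising and 21 falling. By score, between 4.09% (cortical or hippocampal) and 78.6% (oligodendrocyte precursors) of all genes were called. No share of all genes pooled over the 16 scores was computed. The total therefore does not show that the receptors were called more often than other genes. Each identifier has 1 library, and the p-values measure the spread between these libraries.

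These counts have to be read against how many genes of the whole table were called. For neuronal scores, 5 receptors were called for dopamine neurons against 30.5% of all genes, 4 for GABA neurons against 55.4%, and 5 for Slc17a6, the subcortical glutamate transporter, against 53%. The interpeduncular or habenular score called 6 receptors against 59.3% of genes, the serotonin score 2 against 14.4%, and the hypothalamic or mammillary score 1 against 15.8%. The cholinergic or motor score called 1 against 14.9%, and the cortical or hippocampal score 1 against 4.09%. Of these neuronal scores, the dopamine neuron count is the furthest above its background share in percentage points. The oligodendrocyte count (6 against 43.6%, given below) is nearly as far above its own share. The receptors and marker lists were chosen with earlier results of these data known, so neither excess is a test of a link.

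For most glial and vascular scores the greater part of the table moved, and the receptors' counts lay below the background. Oligodendrocytes and choroid plexus, where fewer genes moved, were the exceptions. The astrocyte score called 4 receptors against 71.3% of genes, the oligodendrocyte score 6 against 43.6%, the oligodendrocyte precursor score 4 against 78.6% and the microglia score 3 against 47.1%. The endothelial score called 4 against 73.3%, the mural cell score 4 against 76.7%, the meningeal fibroblast score 5 against 73.3%, and the choroid plexus score 2 against 20.7%. The median slope of all genes stayed between -0.03 and 0.05 in every fit. The size of a slope and its place among genes say more here than the call.

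**Figure D2:**
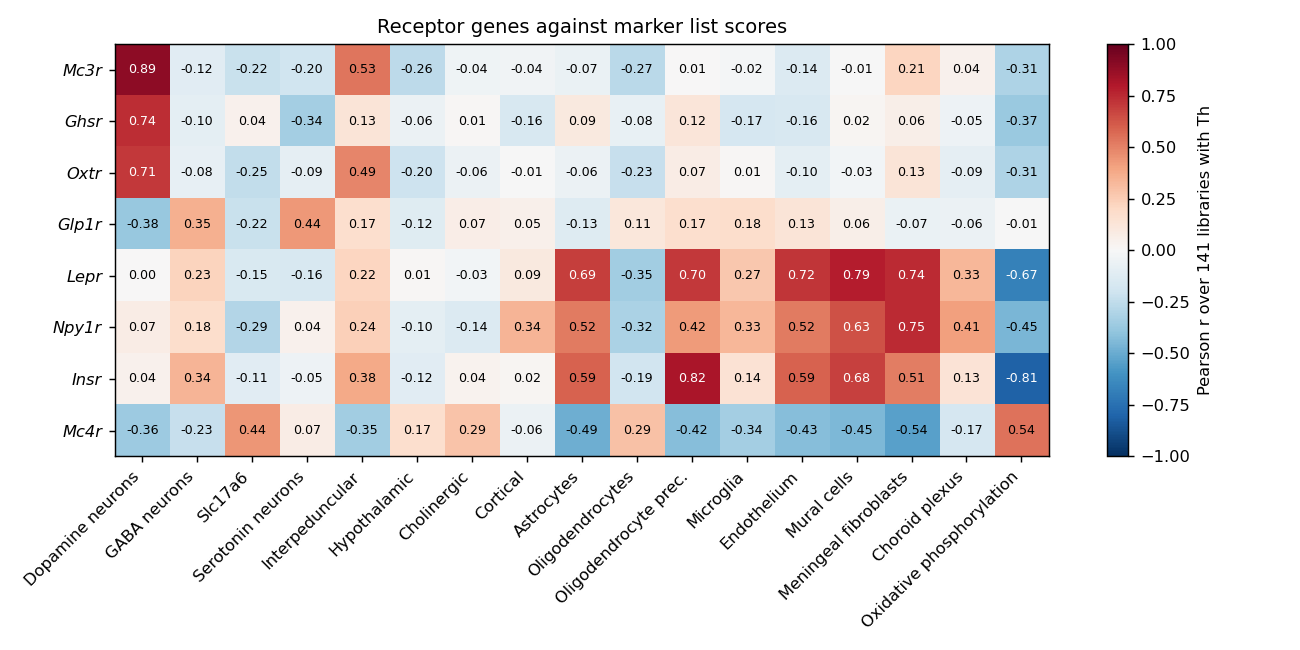
Each cell gives Pearson's r over the libraries with Th between a receptor gene (vertical) and the score of a marker list (horizontal), blue where negative and red where positive. Mc3r, Ghsr and Oxtr are red in the dopamine neuron column, Lepr, Npy1r and Insr in the astrocyte, precursor, vascular and meningeal columns, where Mc4r is blue, and the signs are opposite in the oligodendrocyte column.

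Mc3r, Ghsr and Oxtr rose with the dopamine neuron markers. For each SD of the score, Mc3r rose by 0.50 on the log2 scale (SE 0.0219, limma adjusted p = 1.39e-46), which is 1.42-fold, and its correlation was r = 0.891 (rho 0.851). Ghsr rose by 0.35 (SE 0.0266, limma adjusted p = 3.92e-24; r = 0.736, rho 0.697). Oxtr rose by 0.26 (SE 0.0218, limma adjusted p = 1.44e-21; r = 0.710, rho 0.678). A rise with this score was called for 3 of the 8 receptors, and for 16.8% of all genes. Mc3r and Oxtr also rose with the interpeduncular or habenular score, by 0.31 (SE 0.0394, limma adjusted p = 1.42e-11; r = 0.533) and 0.18 (SE 0.0270, 1.19e-08; r = 0.485), and Ghsr had a slope of 0.06 (0.176). That score had r = 0.376 with the dopamine neuron score. Its single markers ranged from r = -0.0128 (Pou4f1) to 0.665 (Chrna3) for Mc3r and from -0.126 (Pou4f1) to 0.633 (Chrna3) for Oxtr. Gpr151, another marker of that list, had r = 0.257 with Mc3r and 0.203 with Oxtr.

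Of all 15546 genes ranked by r with the score, the list's own markers included, Mc3r came 17 and Ghsr 90. Within decimal libraries r was 0.901 for Mc3r, 0.717 for Ghsr and 0.794 for Oxtr, and within hexadecimal libraries 0.885, 0.768 and 0.671. Without the 2 libraries farthest from the median score, r was 0.888, 0.704 and 0.721. The relation held in both identifier forms for each of these receptors. By single markers, Mc3r followed Slc18a2, the vesicular monoamine transporter gene (r = 0.861), and Aldh1a1, an aldehyde dehydrogenase gene of ventral dopamine neurons (r = 0.846), more closely than the transporter gene Slc6a3 (r = 0.521). The r of Mc3r with Slc6a3 was 0.822 in decimal and 0.482 in hexadecimal libraries. Ghsr was closest to Nr4a2, a nuclear receptor that dopamine neurons need (r = 0.796), and Oxtr to Slc18a2 (r = 0.744). Oxtr and Mc3r also followed Neurod6 (r = 0.681 and 0.667, against 0.331 for Ghsr), a gene listed with the cortical markers. Neurod6 is known as well from a subset of dopamine neurons of this region.

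**Figure D3:**
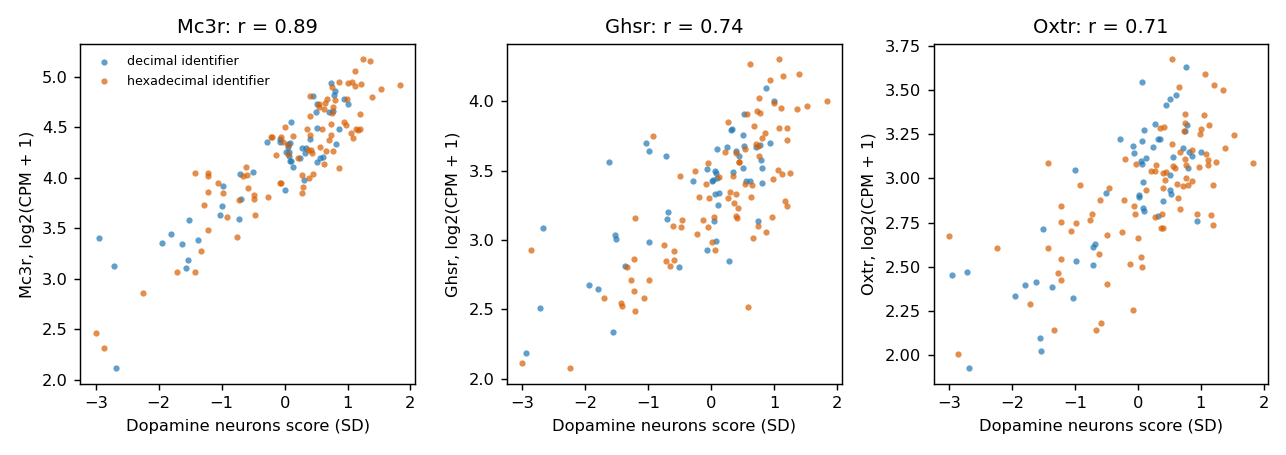
Each point is 1 library with Th (blue decimal, orange hexadecimal identifiers); the horizontal axis is the dopamine neuron score in SD and the vertical axis log2(CPM + 1) of Mc3r, Ghsr or Oxtr. All 3 receptors rise along the score in both identifier forms, most tightly Mc3r at r = 0.891.

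The 250 bases upstream of the start of Mc3r (rises with the dopamine score), Glp1r (falls with it) and Lepr (follows vascular and meningeal markers) are shown to set the 3 patterns beside their promoters. They are from RefSeq (GRCr8), 5′ to 3′, and for these 3 genes the start equals the position in the deposited table. All 8 receptors had an entry, and 57.8% of all 33469 entries start at the position in the table. The same holds for 4 of the 8 receptors, but not for Ghsr, Insr, Oxtr and Npy1r. Capitals mark matches to the motifs searched, here only the GC box.
Mc3r, chr3:181434526-181434775, plus strand: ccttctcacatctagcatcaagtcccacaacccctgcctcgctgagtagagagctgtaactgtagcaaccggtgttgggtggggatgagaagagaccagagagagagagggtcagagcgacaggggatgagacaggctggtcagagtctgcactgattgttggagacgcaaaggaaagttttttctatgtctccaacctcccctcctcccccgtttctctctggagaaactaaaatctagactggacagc
Glp1r, chr20:8973143-8973392, plus strand: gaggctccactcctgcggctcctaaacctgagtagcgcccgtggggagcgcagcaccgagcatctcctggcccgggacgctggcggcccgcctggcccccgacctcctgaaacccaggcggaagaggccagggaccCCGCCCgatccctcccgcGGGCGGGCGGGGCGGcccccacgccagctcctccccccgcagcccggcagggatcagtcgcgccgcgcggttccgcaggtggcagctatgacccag
Lepr, chr5:121409485-121409734, plus strand: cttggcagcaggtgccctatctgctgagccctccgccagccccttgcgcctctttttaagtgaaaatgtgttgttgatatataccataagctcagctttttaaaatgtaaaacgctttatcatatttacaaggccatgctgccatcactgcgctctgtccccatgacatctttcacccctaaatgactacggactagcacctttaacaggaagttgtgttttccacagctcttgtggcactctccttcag
GC content was 52.4% for Mc3r, 75.6% for Glp1r and 46.4% for Lepr, against a median of 51.2% over all promoters. Glp1r held 27 CpG dinucleotides, the other 2 held 5 each.

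On both strands of the 8 windows, 9 motifs were searched, of which the half-site, the bicoid-type site, the homeodomain core and the forkhead site were chosen after the receptors' values were seen. The GC box GGGCGG occurred in 30.5% of all promoters and, of the 8 receptors, only in Glp1r, with 4 matches, 3 of which overlap in a run. The bicoid-type homeodomain site TAATCC, known from Pitx3 and Otx2, occurred in 6.34% of promoters and in those of Ghsr and Insr. The forkhead site TGTTTAC occurred in 3.21% and only in Insr. The windows of Ghsr and Insr are among those whose start differs from the table's position. None of the 8 windows held the Nr4a site AAAGGTCA (1.24% of promoters), its half-site AGGTCA (14.1%, which the former contains), the homeodomain core TAATTA (4.86%), the cyclic AMP response element TGACGTCA (1.59%), the TATA box TATAAA (12.9%) or the E-box CACGTG (5.59%). A match is only a description of letters, and no match says only that these letters are not in this window.

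Glp1r and Mc4r fell as the dopamine neuron markers rose. Glp1r changed by -0.16 on the log2 scale for each SD (SE 0.0343, limma adjusted p = 0.000104; r = -0.376, rho -0.366) and Mc4r by -0.17 (SE 0.0370, limma adjusted p = 6.07e-05; r = -0.364, rho -0.419). A fall was called for 2 of the 8 receptors and for 13.7% of all genes. In decimal libraries alone neither call was kept: the slope was -0.11 for Glp1r (limma adjusted p = 0.220) and -0.12 for Mc4r (0.0797).

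Glp1r rose instead with the serotonin neuron markers Tph2, Slc6a4 and Fev. Its slope on that score was 0.19 (SE 0.0326, limma adjusted p = 6.69e-06; r = 0.437, rho 0.454), and by r it ranked 60 of 15546 genes. The correlation was 0.443 in decimal and 0.446 in hexadecimal libraries. Glp1r also rose with the GABA neuron score (slope 0.15, SE 0.0340, limma adjusted p = 0.000134; r = 0.353, rho 0.362), and among those markers Gad1, a glutamate decarboxylase gene, was the closest (r = 0.458). With all scores entered together neither relation was called: the slope of Glp1r was -0.01 on the serotonin score (limma adjusted p = 0.933) and 0.08 on the GABA neuron score (0.424). The serotonin markers summed to 0.197 to 254 CPM over libraries with Th, and their score itself correlated with the GABA neuron score (r = 0.501). Ghsr fell with the serotonin score (slope -0.15, SE 0.0370, limma adjusted p = 0.00136; r = -0.336), a call that was lost in hexadecimal libraries alone.

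Mc4r followed Slc17a6. Its slope on Slc17a6 was 0.21 (SE 0.0354, limma adjusted p = 2.24e-07; r = 0.444, rho 0.498), while Mc3r (-0.12), Oxtr (-0.09), Npy1r (-0.13) and Glp1r (-0.10) fell with it. None of these 4 falls held in both identifier forms: Mc3r lost its call in decimal libraries, Npy1r and Glp1r in hexadecimal ones, and Oxtr in each. The call for Mc3r was also lost under upper-quartile scaling, no filter, the oxidative phosphorylation covariate described below and without the relabelled libraries, and that for Glp1r under upper-quartile scaling. Mc4r fell with meningeal fibroblasts (slope -0.25, SE 0.0331, limma adjusted p = 2.05e-11; r = -0.540) and ranked 286 of 15546 genes from the lowest r with that score. Of the 12 scores for which Mc4r was called, 9 went down. It also rose on the oligodendrocyte score (0.14, limma adjusted p = 0.0015) and the cholinergic or motor score (0.14, 0.00828). Neither of these rises was called under every alternative. Single markers of the cholinergic or motor list ranged from r = -0.139 (Slc5a7) to 0.534 (Prph) for Mc4r. The fall with GABA neurons (-0.11, limma adjusted p = 0.0133) was lost under upper-quartile scaling, within either identifier form and with the oxidative phosphorylation covariate.

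Lepr, Npy1r and Insr rose with the astrocyte, precursor, endothelial, mural and meningeal scores, and fell with the oligodendrocyte score. The falls were -0.20 for Lepr (limma adjusted p = 3.79e-05), -0.14 for Npy1r (0.000767) and -0.07 for Insr (0.0145). That of Npy1r was 0.01 in decimal libraries alone, and that of Insr lost its call under 6 alternatives, the hexadecimal libraries alone among them. On microglia Lepr and Npy1r rose, and Insr was not called (0.05, limma adjusted p = 0.149). Lepr rose by 0.42 on the log2 scale for each SD of the mural cell score (SE 0.0280, limma adjusted p = 4.19e-29; r = 0.787, rho 0.806) and by 0.41 per SD of the meningeal fibroblast score (SE 0.0291, limma adjusted p = 5.25e-27; r = 0.744, rho 0.794). Npy1r rose by 0.33 per SD of the meningeal score (SE 0.0250, limma adjusted p = 8.53e-25; r = 0.745, rho 0.762). Insr rose most with oligodendrocyte precursors (slope 0.26, SE 0.0164, limma adjusted p = 7.62e-32; r = 0.817, rho 0.734). On the meningeal score, rises were called for Lepr, Npy1r, Insr and Mc3r, 4 of 8 against 52.1% of all genes, and a fall for 1, Mc4r, against 21.2%. The rise of Mc3r (0.11, limma adjusted p = 0.0218) was lost within either identifier form, under upper-quartile scaling and with the oxidative phosphorylation covariate, where it was 0.02 (0.825).

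Single markers of 1 list did not all behave alike, apart from the meningeal ones. Over the 6 meningeal markers, collagens, small proteoglycans and Igf2, r ranged from 0.671 to 0.782 for Lepr and from 0.698 to 0.739 for Npy1r, and from 0.424 to 0.542 for Insr. Lepr was closest among listed markers to Pdgfra, a growth factor receptor of oligodendrocyte precursors and fibroblasts (r = 0.880), and less close to Gpr17 (r = 0.418), another precursor marker. Among mural markers Lepr followed Myh11 of smooth muscle (r = 0.771) and Pdgfrb (r = 0.754), and the mural genes Rgs5 (r = 0.730) and Vtn (r = 0.635), and was less close to the pericyte channel genes Kcnj8 (r = 0.210) and Abcc9 (r = 0.188). Other lists held markers on both sides for Lepr: the endothelial markers ranged from r = -0.0477 (Cldn5) to 0.793 (Tek), the astrocyte markers from -0.138 (Sox9) to 0.706, and the oligodendrocyte markers from -0.683 to 0.535 (Ermn). The dopamine neuron markers ranged from r = -0.370 (En1) to 0.552 (Slc6a3) for Lepr, and from -0.322 (En1) to 0.622 (Slc6a3) for Insr. Npy1r was close to the smooth muscle genes Tagln (r = 0.740), Acta2 (r = 0.727) and Myh11 (r = 0.726) and to Vtn (r = 0.653), with Rgs5 at 0.331 and Kcnj8 at -0.0771. Insr was closest to Rgs5 (r = 0.822), then to the GABA neuron marker Gad2 (r = 0.799) and to Pdgfra (r = 0.790), and its r with oligodendrocyte markers ranged from -0.647 to 0.665.

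The choroid plexus relations depend on few libraries in size. Lepr had r = 0.334 with that score but rho 0.670, and r = 0.673 without the 2 libraries farthest from the median. Npy1r had r = 0.410, rho 0.681 and r = 0.653 without them. The choroid markers summed to 1.94 CPM in the lowest and 12602 CPM in the highest library with Th. Both receptors were called on it, with slopes of 0.19 for Lepr (limma adjusted p = 0.000384) and 0.18 for Npy1r (1.79e-05).

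Npy1r also rose with the cortical or hippocampal markers. Its slope was 0.15 (SE 0.0347, limma adjusted p = 0.00176; r = 0.340, rho 0.375), rank 206 of 15546 genes. Its level was likewise highest in the 11 libraries below the Th threshold, where those markers are abundant. Within libraries with Th the call was lost in hexadecimal libraries alone, where r was 0.272 against 0.469 in decimal ones. Without the 6 libraries with more than 100 CPM of Slc17a7 it was kept.

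**Figure D4:**
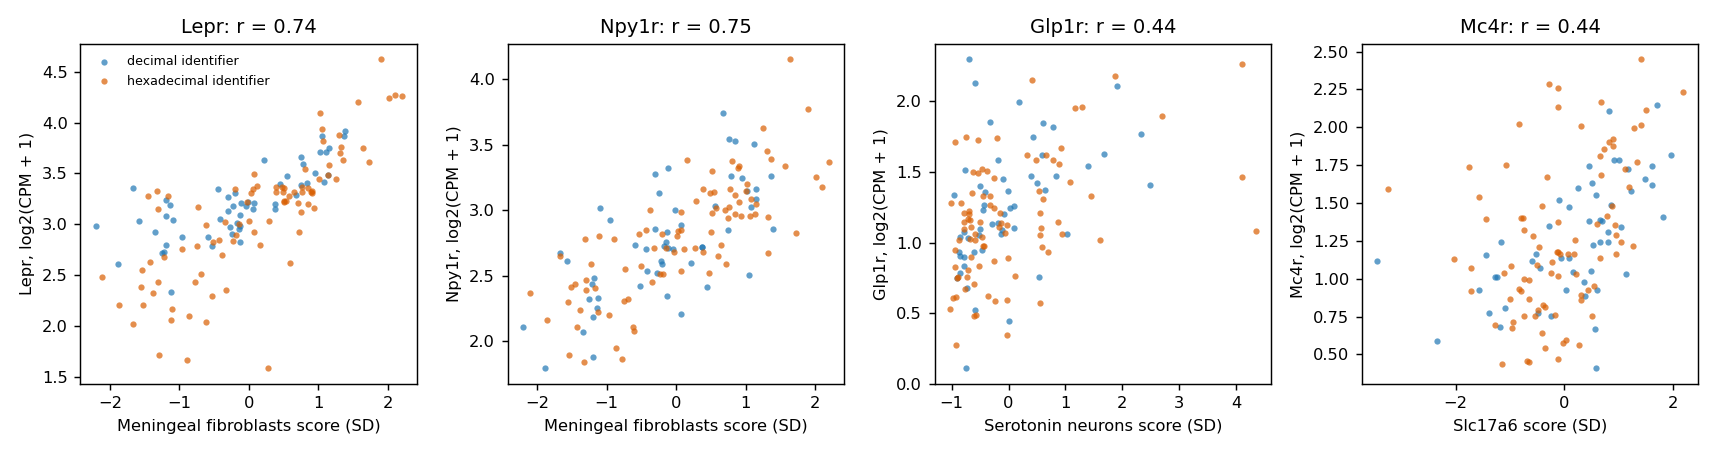
Each point is 1 library with Th (blue decimal, orange hexadecimal); the horizontal axes are scores in SD, the vertical axes log2(CPM + 1). Lepr and Npy1r rise along the meningeal score (r = 0.744 and 0.745), while Glp1r along the serotonin score (r = 0.437) and Mc4r along Slc17a6 (r = 0.444) scatter more.

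The receptors other than Glp1r also moved with genes of mitochondrial energy metabolism, and Insr, Lepr and Mc4r did so most. A score of 12 nuclear oxidative phosphorylation genes, whose correlation with the precursor score was -0.769, had r = -0.809 with Insr, -0.674 with Lepr and 0.541 with Mc4r, against a median of -0.191 over all genes. Among all genes these stood at percentiles 1.58, 11.7 and 89.2. Npy1r (-0.454), Ghsr (-0.370), Mc3r (-0.309) and Oxtr (-0.308) also lay below that median, and Glp1r had r = -0.005. With this score as a further covariate the meningeal slope was 0.30 for Lepr (SE 0.0312, limma adjusted p = 4.55e-16), 0.31 for Npy1r (SE 0.0299, 1.29e-17) and only 0.04 for Insr (SE 0.0187, 0.0413). The slopes of Mc3r, Ghsr and Oxtr on the dopamine score were 0.49, 0.33 and 0.25 with it. Lepr and Insr, not called on the dopamine score otherwise (0.01, limma adjusted p = 0.852, and 0.03), fell with it under that covariate, by 0.10 and 0.05 log2 units (limma adjusted p = 0.0162 and 0.00761). As given above, single dopamine neuron markers lay on both sides for Lepr and for Insr. What the oxidative phosphorylation score stands for in these libraries was not tested.

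Because the scores are related (mural with meningeal r = 0.825), all 16 were also entered together. Then 17 relations were called, a total that likewise has no pooled share of all genes beside it. The dopamine score still called 5 of 8 against 21.9% of all genes. Mc3r rose by 0.48 (SE 0.0296, limma adjusted p = 2.54e-30), Ghsr by 0.43 (SE 0.0364, 7.55e-20) and Oxtr by 0.24 (SE 0.0313, 1.68e-10). Glp1r (-0.17, limma adjusted p = 0.00371) and Mc4r (-0.12, 0.0369) fell. In decimal libraries alone, where 53 libraries carry all the terms, the last 2 slopes turned to 0.25 for Glp1r and 0.05 for Mc4r, neither of them called. The call for Mc4r was also lost under a pseudocount of 0.1, upper-quartile scaling, no filter and the oxidative phosphorylation covariate, and that for Glp1r without the Slc17a7 libraries.

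The meningeal score called 2 receptors against 4.95% of all genes in this fit, Npy1r (0.22, SE 0.0594, limma adjusted p = 0.00780) and Lepr (0.19, SE 0.0582, 0.0282). The call for Npy1r was lost in decimal libraries alone, and that for Lepr within either identifier form and with no filter on low genes. On mural cells, the leading score of Lepr when fitted alone, the slope of Lepr was -0.07 here (SE 0.0754, limma adjusted p = 0.915), and those of Npy1r (0.12, 0.793) and Insr (0.01, 0.993) were not called either. Variance inflation is the factor by which related scores widen the variance of a slope. It was highest for mural cells (10.6, with 6.14 for meningeal fibroblasts), so this fit separates the mural and meningeal terms poorly. The precursor score called 4 against 52.7%: Insr (0.25, SE 0.0321, limma adjusted p = 4.11e-11), Lepr (0.25), Oxtr (0.13) and, falling, Mc4r (-0.15). For Insr this call held in every alternative run, and the others did not hold in decimal libraries, where Oxtr turned to -0.01.

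The remaining terms of the joint fit called few receptors. The interpeduncular term called 2 against 9.44% of genes, Mc3r rising (0.13, limma adjusted p = 0.000889) and Ghsr falling (-0.11, 0.0423), and in decimal libraries alone Mc3r turned to -0.01. The Slc17a6 term called 1 against 15.5% (Mc4r, 0.18, limma adjusted p = 0.0126), the cortical term 1 against 3.26% (Npy1r, 0.09, 0.0435), the astrocyte term 1 against 25.4% (Glp1r, -0.21, 0.00583) and the microglia term 1 against 25.0% (Insr, -0.09, 0.000913). The last turned to 0.01 in decimal libraries, and the first 3 were lost within 1 or both identifier forms. The fall of Ghsr on the interpeduncular term was lost within either form and with no filter. The other 8 terms called no receptor in limma against 5.18% of genes.

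**Figure D5:**
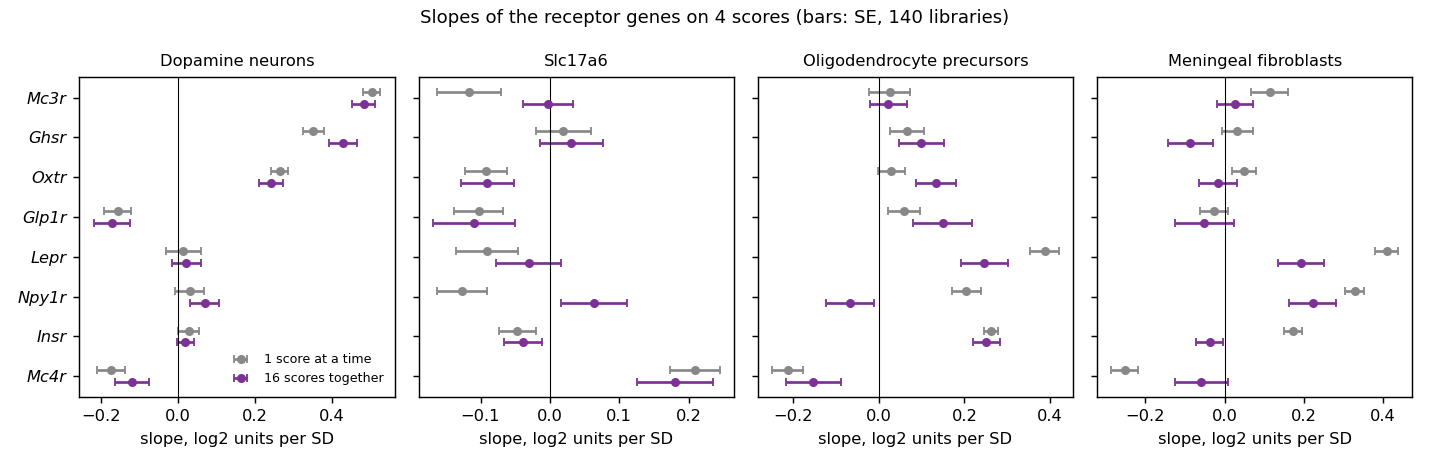
Points are slopes (log2 units per SD of the score) of the 8 receptors on 4 scores, fitted 1 score at a time (grey) or with all 16 together (purple), with SE as bars, in 140 libraries. The dopamine slopes of Mc3r, Ghsr and Oxtr stay between 0.24 and 0.50 in both fits, while Insr on the meningeal score moves from 0.17 to -0.04.

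All scores together left an adjusted share of variance explained of 85.3% for Mc3r, at percentile 98.3 of all genes. The share was 75.1% for Insr, 73.2% for Lepr, 66.4% for Ghsr, 60.1% for Oxtr, 59.1% for Npy1r, 52.2% for Mc4r and 35.4% for Glp1r, with a median of 48.4% over all genes. Glp1r is thus the only receptor under the median of the table, and also the one with the largest share of counting error.

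Between identifier forms 1 receptor differed, against 38.0% of all genes. Insr was lower by 0.14 log2 units in hexadecimal libraries (SE 0.0544, limma adjusted p = 0.0360), a call that was lost with limma-voom, with no filter, with all scores as covariates, and without the 6 libraries with Slc17a7. The median was 40.7 CPM in decimal and 39.6 CPM in hexadecimal libraries, and the ranges overlapped almost wholly. Slopes differed between the forms for the astrocyte score in 5 receptors, against 38.6% of all genes, and for the meningeal score in 1, Lepr, against 25.0%. For the other 14 scores no receptor's slope difference was called by limma, against 5.00% of genes, and 21 of those differences had an unadjusted p under 0.05. On the astrocyte score Lepr rose by 0.14 in decimal and 0.48 in hexadecimal libraries.

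The receptors were also compared with one another over the libraries with Th. Oxtr and Mc3r had r = 0.728 (rho 0.696; 0.820 in decimal and 0.679 in hexadecimal libraries), Ghsr and Mc3r 0.592, and Ghsr and Oxtr 0.492. Of the 15545 other genes ranked by likeness to Oxtr, Mc3r came 20. Lepr and Insr had r = 0.705, but 0.352 in decimal against 0.780 in hexadecimal libraries. Lepr and Npy1r had r = 0.574. The most negative pairs were Mc4r with Insr (-0.541), Lepr (-0.485) and Npy1r (-0.439), followed by the ghrelin with the glucagon-like peptide 1 receptor (-0.398). The 2 melanocortin receptors went opposite ways, with r = -0.383.

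By the genes most like each receptor, Mc3r and Oxtr shared some, and Ghsr shared none with either. The 5 genes most like Mc3r were Slc39a4 (a zinc transporter, r = 0.887), Syt17, the axon guidance gene Ntn1, Cpne7 and Fam167a, all above r = 0.874. Those most like Oxtr were Zcchc12 (r = 0.828), Celf6, Cd200, Syt17 and Fam167a, so 2 of 5 were shared with Mc3r. Those most like Ghsr were Nr4a2 (r = 0.796), the thrombin receptor gene F2r, the neurotrophic factor receptor gene Ret, St8sia6 and Apba1.

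The other receptors had their own nearest genes. For Lepr they included Iqgap1 (r = 0.884), Pdgfra, Arhgap29 and Cavin1, and for Npy1r they were the collagen cross-linking enzyme gene Lox (r = 0.774), Sorbs2, Ecm2, Omd and Mustn1. The genes most like Insr included the chromatin regulators Nsd1 (r = 0.901), Ash1l, Nipbl and Phc3. Mc4r was most like Cdr2l (r = 0.783), the neurofilament-type gene Ina, Cables2, Vamp1 and the calcium-binding protein gene Pvalb. Glp1r had the weakest likeness, to Nxph1 (r = 0.566), Entpd3, the neuropeptide Y receptor gene Npy2r, Zmat4 and Ndst4.

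Genes next to the receptors on the chromosome mostly did not follow them. Leprot, whose span overlaps Lepr and whose position lies 4.57 kb away, had r = 0.114 with Lepr, and counting does not state strand, so reads shared between them cannot be told apart. Npy5r, another neuropeptide Y receptor gene 7.99 kb from Npy1r, had r = -0.0997. Cbln4, a synaptic organiser gene 209 kb from Mc3r, had r = 0.672 with it. Of the nearest genes of Insr, Arhgef18 had r = 0.450, and of those of Npy1r, Naf1 had 0.430.

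Ligands of the receptors were mostly scarce in the tissue itself. The leptin gene Lep, Ins1, the proglucagon gene Gcg, the oxytocin gene Oxt and Pyy had a median of 0 CPM in libraries with Th. Ghrl (median 23.9 CPM) and Ins2 (17.6 CPM) had counts in every one of these libraries. Neighbouring genes were looked at only for the receptors, so whether these counts come from the ligand transcripts themselves was not tested. Npy ranged from 2.24 to 37.6 CPM (median 8.67) and had a median of 50.1 CPM in the libraries below the threshold. Pomc, the melanocortin precursor gene, ranged from 0.300 to 1353 CPM around a median of 1.85. Of the 11 ligand genes listed 5 passed the filter, and of these Ins2 and the cholecystokinin gene Cck rose with the dopamine score and Npy with the meningeal score. Such rises were called for 16.8% and 52.1% of all genes.

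Over 66 listed pathway genes 50 passed the filter on low values. With the dopamine score 17 rose and 7 fell, against 16.8% and 13.7% of all genes, and the median slope was 0.02 against 0.00 over all genes. With the meningeal score 26 rose and 10 fell, against 52.1% and 21.2%, with a median of 0.05 against 0.04. Signal transducers such as Jak2, Stat3 and Akt2 rose with the meningeal score in 14 of 20 cases and with the dopamine score in 3 of 20. Stat3, the transcription factor of leptin signalling, rose by 0.12 (SE 0.0108, limma adjusted p = 4.73e-20) per SD of the meningeal score, and Irs1, an insulin receptor substrate, by 0.42 (SE 0.0534, 6.68e-12). Only the processing enzymes were called in all 6 tested cases on the dopamine score, against 30.5% of all genes. Of them 5 rose, such as the prohormone convertase gene Pcsk1 (0.14, SE 0.0272, limma adjusted p = 8.75e-06), and the insulin-degrading enzyme gene Ide fell (-0.04, SE 0.0123, 0.00845). These groups are small and were listed with earlier results of these data known, so their counts are no test.

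Among related receptors 6 of 13 rose with the dopamine score and 3 fell, against 16.8% and 13.7% of all genes. Those that rose included Calcr, the calcitonin receptor gene (0.30, SE 0.0368, limma adjusted p = 9.76e-12), Cckar, a cholecystokinin receptor gene (0.26, SE 0.0478, 3.92e-06), Gipr, an incretin receptor gene (0.20, SE 0.0196, 2.24e-17), and Mchr1, the melanin-concentrating hormone receptor gene (0.16, SE 0.0124, 1.30e-23). Those that fell were Npy2r (-0.19), Npy5r (-0.14) and Cckbr (-0.26). Calcr ranged from 2.05 to 25.8 CPM with Th and Cckar from 0.221 to 12.2 CPM, with medians of 0.111 and 0 CPM in the libraries below. Mrap2, the accessory protein of melanocortin receptors, rose with the dopamine score (0.09, SE 0.0169, limma adjusted p = 3.27e-06) and fell with the meningeal score (-0.12, SE 0.0151, 8.53e-13).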

How the data were processed

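Estimated counts per gene were made by the authors with kallisto 0.48, per the submitters' processing notes, and deposited as log2 values in 1 table. That the deposited values are log2(estimated count + 1) was taken from the values, since 55.7% of back-transformed values between 0 and 100 came out whole (tolerance 0.001). The genome build, annotation and strand setting are not given in the sources used here. Positions are those of the table, and gene spans and promoters are from RefSeq (GRCr8).

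Values were back-transformed, divided by the library total and used as log2(CPM + 1). Genes with a mean of at least 1 entered limma 3.58.1 (R 4.3.3, eBayes with trend), with p-values adjusted over all genes, and limma-voom was an alternative. The scripts were tested on simulated data. Correlations describe the libraries and carry no p of their own. Alternatives changed scaling (upper quartile), pseudocount (0.1), filter, covariates, libraries and scores. Where a value rests on few counts, its depth is given beside it. The members, marker lists and pathway list were chosen with earlier results of these data known. Named genes are the 8 receptors, the 5 tested genes most correlated with each (same sign in both identifier forms), the 2 nearest genes on either side, the pathway genes and the listed markers. A few genes that the rule names are not reported here. Replicates are single libraries numbered in accession order, and nothing in the labels pairs them. No 2 libraries held identical values.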

Additional observations from a re-analysis of the deposited data

Results flagged for a closer look

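For 6 relations of a receptor to a score, the slope differed between identifier forms by limma's interaction term, with p adjusted over all 15547 genes. On the astrocyte score the difference (hexadecimal minus decimal, in log2 units per SD) was 0.30 for Lepr (SE 0.0679, limma adjusted p = 0.000309), 0.29 for Mc3r (SE 0.101, 0.0154), 0.21 for Oxtr (SE 0.0652, 0.00706), 0.12 for Insr (SE 0.0468, 0.0293) and -0.20 for Mc4r (SE 0.0738, 0.0251). Lepr and Insr rose with the score in both forms, by 0.14 and 0.09 in decimal and 0.48 and 0.23 in hexadecimal libraries. Mc3r had a slope of -0.19 in decimal and 0.05 in hexadecimal libraries, and Oxtr -0.13 and 0.04, none of them called. Mc4r had -0.10 and -0.30, of which only the second was called. On the meningeal score the difference was 0.18 for Lepr (SE 0.0609, limma adjusted p = 0.0220), with a slope of 0.26 in decimal and 0.49 in hexadecimal libraries. The astrocyte term called 38.6% of all genes, so the receptors share this difference with much of the table. What the identifier form stands for is not given in the labels.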

How the results depend on the processing

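The 57 called relations fitted 1 score at a time numbered between 44 and 63 over 14 alternatives. Of their refitted slopes 730 kept direction and call and 66 lost the call. The other 2 reversed, Npy1r on oligodendrocytes to 0.00858 in decimal libraries and Lepr on the interpeduncular score to -0.0570 with the oxidative phosphorylation covariate. In all, 28 of the 57 were called under every alternative, among them the dopamine slopes of Mc3r, Ghsr and Oxtr. The 17 relations with all scores together were 5 in decimal libraries alone and 12 to 16 otherwise, and 4 were called throughout. In decimal libraries 5 of them reversed: Glp1r (0.25) and Mc4r (0.0517) on dopamine neurons, Mc3r on the interpeduncular score (-0.0117), Oxtr on precursors (-0.0112) and Insr on microglia (0.0101). That fit has 53 libraries for 16 scores. The 1 receptor differing by identifier form became 0 with no filter, limma-voom, all scores as covariates, or without the Slc17a7 libraries. The slope differences between forms numbered 4 to 8 under 3 alternatives chosen after seeing the data. Upper-quartile scaling raised all genes by 0.12 log2 units in the libraries below the Th threshold relative to those above, and medians of the receptors moved by less than their SD. A Th threshold of 100 CPM gave the same sets. No paired analysis was possible because the labels give no replicate numbers and the libraries have no pairs. Depth limits Glp1r most, at a median of 32 counts.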
